A study of Mus musculus with 6 samples.

Results

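Axon guidance ligands and their receptors were followed through bulk wells, single nuclei in plates and single nuclei in droplets, all made from formalin-fixed paraffin-embedded (FFPE) mouse brain, with frozen material in some of the tables. The members were taken by gene symbol: the semaphorins of classes 3 to 7, the plexins, neuropilins, Eph receptors, ephrins, Robo receptors, Slit ligands, netrins, netrin-G proteins, the Unc5 receptors and Dcc. The rule found 73 members among the 25696 mouse genes of all tables. They comprised 20 semaphorins, 14 Eph receptors, 9 plexins, 8 ephrins, 5 genes of the Unc5 and Dcc group, 4 Robo genes, 3 Slit genes, 3 netrins, 2 netrin-G genes, 2 neuropilins and 3 antisense genes of Plxna4. The SCRB-seq wells had rows for 68 of them, the SMART-Seq2 tables for 70 and the droplet table for all 73. No measured value entered the choice.

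Guidance cues steer the growing axon by attraction or repulsion at its tip, and in the adult brain many of the same proteins act at synapses and in glia. Slit proteins are secreted and bind Robo receptors. Netrins bind Dcc and the Unc5 receptors, where Dcc is known for attraction and Unc5 for repulsion. Secreted semaphorins of class 3 mostly bind a neuropilin that partners with a plexin, while the membrane-bound classes bind plexins directly. Ephrins are held at the cell surface, either by a lipid anchor (ephrin-A) or by a membrane-spanning segment (ephrin-B), and activate the Eph receptor tyrosine kinases of neighbouring cells.

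The animals were C57BL/6J mice aged 8 to 12 weeks, and the tissue was labelled as cortex. FFPE scrolls of 50 µm were cleared of paraffin by 1 of 3 methods: heated mineral oil, heated xylene, or xylene used without heating. Nuclei were then released, and sorted into plates or loaded into droplets. SCRB-seq, a plate method that counts molecules near the 3′ end of the transcript, was run on 64 wells, 16 for each method and 16 frozen, with 10 nuclei in 8 wells and 100 nuclei in the other 8 of each group. SMART-Seq2, which reads fragments along the whole transcript, was run on 12 bulk wells, 1 each of 100, 50 and 10 nuclei per group, and on single nuclei in plates (143 FFPE and 137 frozen nuclei in the table of the whole series). Droplets of the 10x platform held 7031 FFPE nuclei from 1 library, with no doublets called or removed here and no statement in the sources used here on doublets. The frozen wells and nuclei are named in the deposited annotation only, and the sources used here do not say from which animals or blocks any well came. Wells are therefore treated as technical replicates, and p-values measure the spread between these wells.

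Total counts ran from 7512 to 167144 per SCRB-seq well (median 57530.5), from 270363 to 942966 per SMART-Seq2 well, and from 235 to 998 unique molecular identifiers (UMIs) per droplet nucleus (median 325). In the plate table of the whole series, 134 of the 143 FFPE nuclei held the same counts as batch 2 over 21117 shared genes, so these 2 tables are not separate evidence, and 9 were in that table alone. FFPE and frozen material also differed in the levels of cell type markers. The summed level of 5 measured granule neuron markers, genes of the small neurons of the cerebellum, was 9.39 CPM (counts scaled to the same library total in every well) in frozen SCRB-seq wells against 999 to 2000 across the 3 FFPE groups, and 0.614 in frozen SMART-Seq2 wells, where 4 of the 5 markers were at 0, against 1162 to 2298. Cortical excitatory neuron markers went the other way, at 886 and 1413 CPM in frozen wells of the 2 assays against 308 to 442 and 172 to 275 in FFPE wells, where up to 2 of the 6 markers were at 0. Purkinje neuron markers stood at 628 and 580 CPM in frozen wells against 92.2 to 150 and 89.6 to 163 in FFPE wells. These marker levels differ between the groups in both bulk comparisons of FFPE with frozen material below, and their part in the results was not tested. Fewer cells of a type and less RNA per cell cannot be told apart in such wells, nor can fixation be told apart from the source of the nuclei.

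In SMART-Seq2 wells, FFPE nuclei held less of the ephrin Efna5, of the receptors Unc5d, Ephb6 and Epha10, of the ligands Slit1 and Slit2 and of the semaphorin Sema3e than frozen nuclei, and more of the ligand Ntn4 and the receptor Unc5b. These were 9 of the 45 members tested (a share of 20%), beside 4.09% of all 9092 genes tested, with 2 members higher (1.45% of all genes) and 7 lower (2.64% of all genes). A call is an adjusted p under 0.05 in edgeR's quasi-likelihood test, with the mean of the 3 FFPE methods set against frozen. Members reached the test through a filter on low counts that a gene seen in frozen wells alone could pass, so nothing further is read from the share. The median log2 fold change was -0.55 over the tested members and -0.13 over all genes.

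Efna5, a lipid-anchored ephrin that repels axons carrying EphA receptors in the visual map, had the smallest adjusted p. It measured 1254, 1624 and 1798 CPM in the frozen wells of 100, 50 and 10 nuclei. The same order of wells gave 109, 175 and 446 CPM with heated xylene, 28.5, 30.0 and 0 CPM with room-temperature xylene, and 4.04, 116 and 0 CPM with mineral oil. All 9 FFPE wells lay under all 3 frozen wells. The log2 fold change was -5.02 (SE 0.74, adjusted p = 0.000131).

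Unc5d, a netrin receptor of the repulsive Unc5 family that also binds the adhesion protein Flrt2, measured 686, 766 and 1206 CPM in the frozen wells. Its highest FFPE well, heated xylene with 50 nuclei, reached 122 CPM, and the room-temperature xylene and mineral oil wells of 10 nuclei were at 0. The log2 fold change was -5.12 (SE 0.83, adjusted p = 0.0004). Ephb6, an Eph receptor whose kinase domain is catalytically inactive, measured 126, 85.1 and 141 CPM in frozen wells. Of the FFPE wells only 2 held any count of it, at 22.4 and 4.32 CPM, both with 100 nuclei. The log2 fold change was -6.73 (SE 1.34, adjusted p = 0.00397). That value averages the FFPE methods, and the wells of a whole method were at 0, so its size is not an exact fold. The FFPE and frozen wells did not overlap for either receptor.

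Ntn4, a secreted netrin of basement membranes that binds laminin, ran the other way. It stood at 4.29, 3.70 and 2.24 CPM in the frozen wells, from 5 counts in all. In FFPE wells it ran from 45.9 CPM (room-temperature xylene, 50 nuclei) to 357 CPM (mineral oil, 10 nuclei). Every FFPE well lay above every frozen well, with a log2 fold change of 5.40 (SE 0.96, adjusted p = 0.00102). Unc5b, the Unc5 receptor known for its part in vessel branching, had no count in any of the 3 frozen wells and 228 counts over the FFPE wells, where it ran from 2.03 to 68.6 CPM. With 3 counts over the frozen wells as the floor, it was at least 21.9-fold higher in FFPE wells (adjusted p = 0.047).

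Slit1, Slit2, Sema3e and Epha10 were lower in FFPE wells with overlapping groups. Slit2, a secreted repellent for axons with Robo receptors, measured 114, 185 and 43.8 CPM in frozen wells, and the heated xylene well of 10 nuclei, at 194 CPM, was the highest of all 12. It was at 0 in all 3 mineral oil wells, and its log2 fold change was -5.18 (SE 1.21, adjusted p = 0.014). That value averages the 3 FFPE methods, 1 of them at 0, so its size is not an exact fold. Slit1, a close relative of Slit2, measured 70.3 to 81.9 CPM in frozen wells and 0 to 85.5 CPM in FFPE wells (log2 fold change -4.94, SE 1.27, adjusted p = 0.0271). Sema3e, a secreted semaphorin that can bind Plxnd1 without a neuropilin, measured 57.9 to 205 CPM in frozen and 0 to 96.9 CPM in FFPE wells (-4.47, SE 1.08, adjusted p = 0.0155). Epha10, a second Eph receptor without kinase activity, measured 88.8 to 163 CPM in frozen and 0 to 102 CPM in FFPE wells (-4.76, SE 1.24, adjusted p = 0.0296).

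Ntn4, Ephb6, Efna5 and Unc5d were called under all 16 other settings, including each of the 12 fits that left out 1 well. The other 5 calls were lost in some fits without 1 well, as leaving out any frozen well reduced the 9 calls to 5. Unc5b was called in 3 of those 12 fits (highest adjusted p 0.293, without the frozen well of 10 nuclei) and was also lost without the filter (0.0596) and with the number of nuclei as a covariate (0.0686), Slit1 in 6 (highest 0.136) and Epha10 in 7 (highest 0.196). Slit2 was lost without the frozen well of 100 nuclei (0.0591) or of 50 nuclei (0.110), and Sema3e without that of 50 nuclei (0.102) or of 10 nuclei (0.218).

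**Figure D1:**
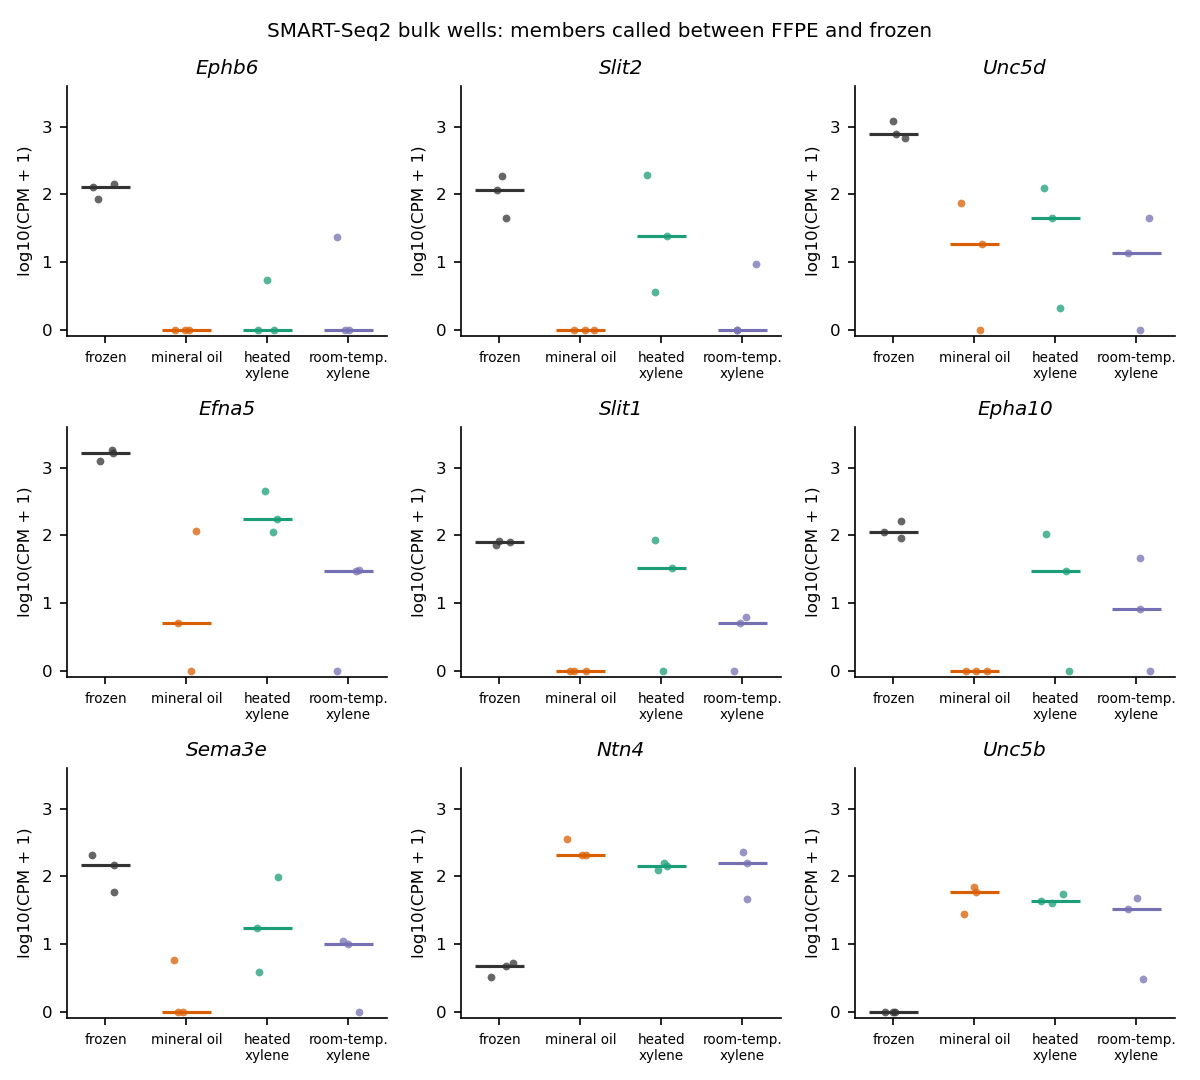
Level of the 9 members called between FFPE and frozen in each of the 12 SMART-Seq2 bulk wells, as log10(CPM + 1) on the vertical axis, by group on the horizontal axis (3 wells per group, bar at the median). Efna5, Unc5d and Ephb6 lie lower in every FFPE well than in every frozen well, and Ntn4 and Unc5b lie higher.

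The start regions of 4 of these members are printed here because their FFPE and frozen wells did not overlap, in 1 direction for Ntn4 and Unc5b and in the other for Efna5 and Ephb6. They are the 250 bases before the RefSeq start site in GRCm38.p6, read on the gene's strand, and stop where the first annotated exon begins (221 bases for Ephb6). The windows are chr10:93640799-93641048 on the plus strand for Ntn4, chr10:60831582-60831831 on the minus strand for Unc5b, chr17:62881318-62881567 on the minus strand for Efna5 and chr6:41605261-41605481 on the plus strand for Ephb6. All lie outside the exons of their own gene in GENCODE M21, and the Ntn4 window lies in an intron of its longer transcript. Capitals mark GGGCGG, or CCGCCC on the other strand, the letters of the GC box bound by Sp1.

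Ntn4 promoter: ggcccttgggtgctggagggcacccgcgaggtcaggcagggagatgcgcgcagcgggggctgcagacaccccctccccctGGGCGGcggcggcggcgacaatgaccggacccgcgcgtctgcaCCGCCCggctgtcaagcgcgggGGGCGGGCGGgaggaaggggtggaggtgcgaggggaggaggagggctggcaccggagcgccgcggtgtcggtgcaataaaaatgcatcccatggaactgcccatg
Unc5b promoter: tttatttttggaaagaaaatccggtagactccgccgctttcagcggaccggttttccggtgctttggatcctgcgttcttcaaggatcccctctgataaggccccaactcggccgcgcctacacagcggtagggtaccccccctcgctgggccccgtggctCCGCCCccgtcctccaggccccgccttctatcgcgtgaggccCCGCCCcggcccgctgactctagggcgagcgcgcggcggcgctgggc
Efna5 promoter: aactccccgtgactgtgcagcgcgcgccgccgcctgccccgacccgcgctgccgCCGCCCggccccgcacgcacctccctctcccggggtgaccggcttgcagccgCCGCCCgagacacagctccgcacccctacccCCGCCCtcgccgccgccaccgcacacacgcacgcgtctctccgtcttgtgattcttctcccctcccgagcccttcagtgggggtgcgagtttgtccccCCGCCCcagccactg
Ephb6 promoter: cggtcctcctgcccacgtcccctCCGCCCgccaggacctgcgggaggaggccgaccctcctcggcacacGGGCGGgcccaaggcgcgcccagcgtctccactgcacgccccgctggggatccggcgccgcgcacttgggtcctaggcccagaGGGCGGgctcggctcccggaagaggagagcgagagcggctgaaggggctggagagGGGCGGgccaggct

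The GC box letters occurred 4 times in the Ntn4 window, 2 times in Unc5b, 4 times in Efna5 and 4 times in Ephb6, where overlapping matches count separately. They were in 32.7% of all 32851 windows of 250 bases. Neither of the E-box motifs searched was in any of the 4, namely CAGCTG, which reads the same on both strands and was in 13% of all windows, and CAGATG or CATCTG, in 14.4%. All 4 windows were rich in CpG, with 26, 27, 32 and 24 sites in the order printed, against a median of 6 per window over all genes. Their GC content was 73.2%, 66.8%, 74.8% and 76.5%, against a median of 52.4%. A match is a description of the sequence and not a site shown to be bound. Unc5d had no entry, and 60 of the 73 members had one.

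SCRB-seq wells gave a lower level in FFPE than in frozen nuclei for the receptors Unc5d, Dcc and Robo2 and the ligand Slit3, and a higher level for the Eph receptors Epha3 and Epha10. Called members were 6 of the 11 that passed the filter (54.5%), beside 58% of all 1478 genes tested, so the share was near the background. There were 2 higher (30.2% of all genes) and 4 lower (27.7% of all genes). The median log2 fold change was -0.45 over the tested members and 0.00406 over all genes.

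Unc5d had the largest fall. Its 16 frozen wells ran from 114 to 1957 CPM with a median of 485, and its 48 FFPE wells from 0 to 884 CPM with a median of 67.9. The groups overlapped, and the log2 fold change was -2.76 (SE 0.29, adjusted p = 4.87e-13). Dcc, the netrin receptor known for attraction, ran from 162 to 1306 CPM (median 512) in frozen wells and from 56.1 to 858 CPM (median 224) in FFPE wells, a log2 fold change of -1.04 (SE 0.22, adjusted p = 5.05e-05). Slit3, a secreted Robo ligand, had medians of 782 CPM frozen and 306 CPM FFPE, with a highest FFPE well of 2169 CPM that lay above every frozen well (-1.06, SE 0.28, adjusted p = 0.00088). Robo2, a Slit receptor, had medians of 290 and 99.4 CPM (-0.77, SE 0.34, adjusted p = 0.0474), and was not called without the filter (adjusted p = 0.193) or in wells of 100 nuclei alone (0.270).

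Epha3, an EphA receptor that binds Efna5, had a median of 26.5 CPM over frozen wells (0 to 194) and 80.7 CPM over FFPE wells (0 to 2396). Its log2 fold change was 1.43 (SE 0.47, adjusted p = 0.00719). Epha10 had medians of 166 and 236 CPM (1.15, SE 0.40, adjusted p = 0.0112). Both rises depended on the scaling: with the size factors of DESeq2 the adjusted p was 0.0969 for Epha3 and 0.318 for Epha10, the DESeq2 test gave 0.0675 and 0.288, and Epha10 also lost its call in wells of 100 nuclei alone (0.303). Those factors shifted the median log2 fold change of all genes from 0.00406 to -0.58 and the split of all calls from 447 higher and 410 lower to 309 higher and 674 lower. Under them 7 members were called, 0 higher and 7 lower, and the log2 fold changes of Epha6 (0.31 to -0.31) and Unc5c (0.22 to -0.43), which were not called with the main scaling, turned in sign.

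**Figure D2:**
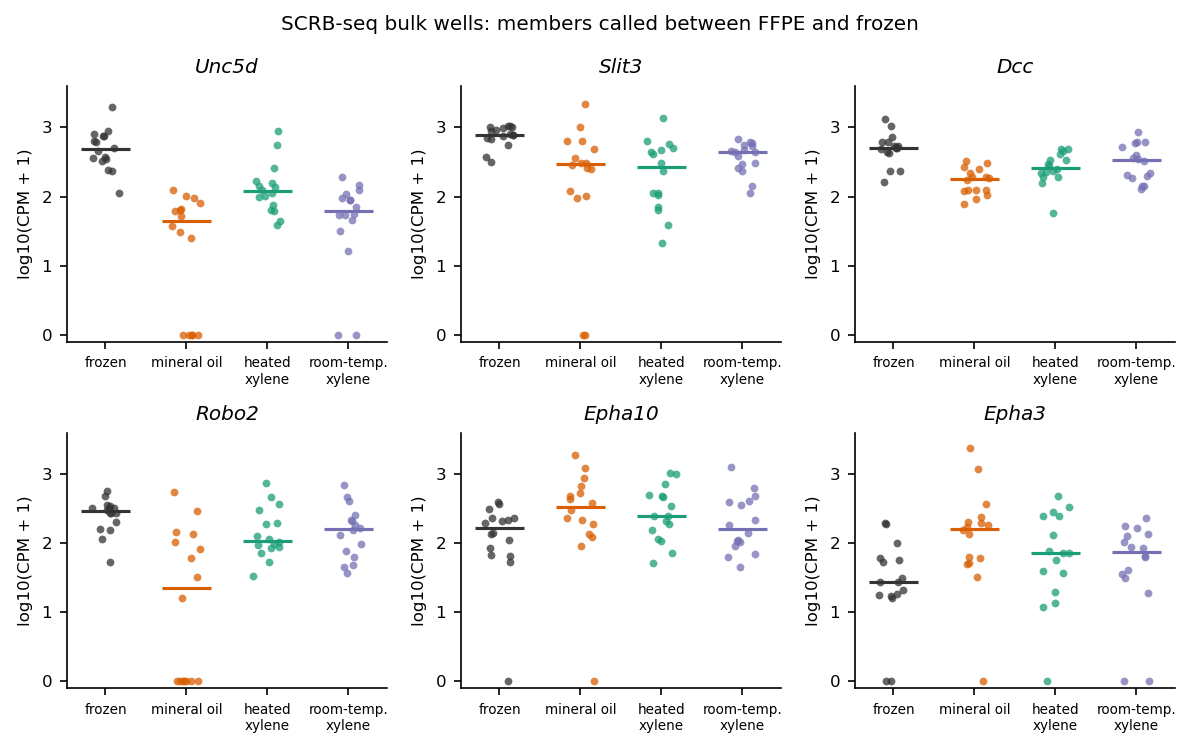
Level of the 6 members called between FFPE and frozen in each of the 64 SCRB-seq wells, as log10(CPM + 1) on the vertical axis, by group on the horizontal axis (16 wells per group, bar at the median). Unc5d, Dcc, Slit3 and Robo2 have lower medians over FFPE wells, Epha3 and Epha10 higher ones, and the groups overlap for all 6.

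Members with too few counts to pass the filter in SCRB-seq still held some large differences, given here as counts with no test. Ephb6 had 0 counts in all 48 FFPE wells and 83 counts in the frozen wells, of which 13 of 16 held at least 1. It was thus at least 77.3-fold lower in FFPE wells, with 3 counts over the group as the floor. Unc5b had 235 counts in FFPE and 9 in frozen wells, Ntn4 343 and 31, Slit1 33 and 78, and Slit2 26 and 97. The FFPE wells held 2976681 counts in all and the frozen wells 1065514. Efna2, an ephrin-A, had 38 counts in FFPE wells and 0 in frozen wells, at least 4.53-fold higher, and the netrin Ntn5 had 0 and 9 counts, at least 8.38-fold lower.

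Across the 2 assays Unc5d was lower in FFPE wells in both, by adjusted p. Efna5, at a log2 fold change of -5.02 in SMART-Seq2 wells, was at -0.31 in SCRB-seq wells (SE 0.21, adjusted p = 0.202). Epha10 was called in opposite directions, at -4.76 in SMART-Seq2 and 1.15 in SCRB-seq. Epha3 was at 1.43 in SCRB-seq and 1.56 in SMART-Seq2, where its adjusted p was 0.29. Slit3 was at -1.06 and -1.11, the latter with an adjusted p of 0.119. Dcc was at -1.04 in SCRB-seq and 0.14 in SMART-Seq2 (SE 0.61, adjusted p = 0.957). Differences between the assays were not tested.

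**Figure D3:**
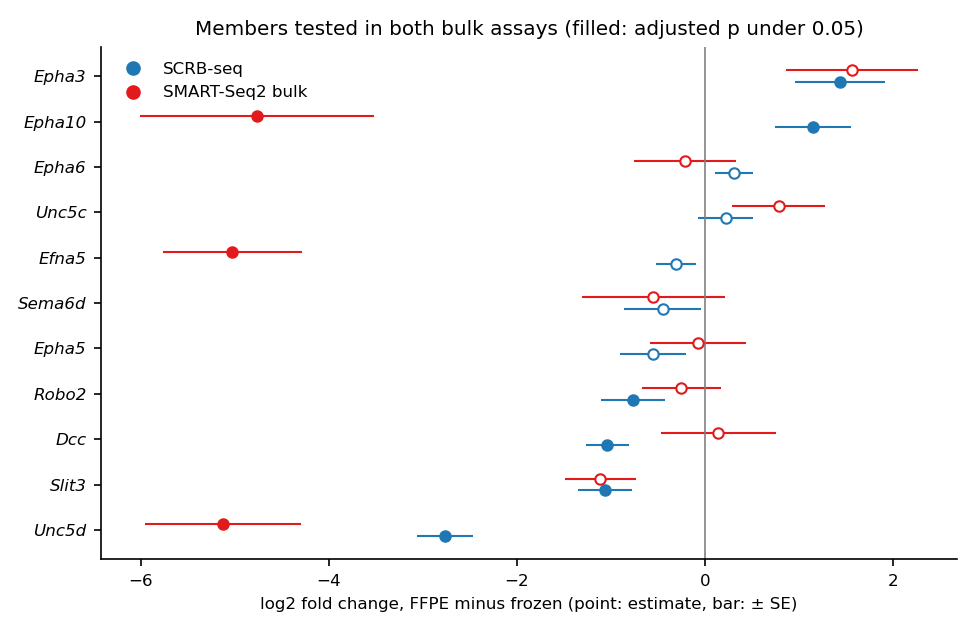
Log2 fold change of FFPE minus frozen on the horizontal axis for the members tested in both bulk assays, 1 per row, with bars of 1 SE and filled points where the adjusted p is under 0.05. Unc5d is filled and left of 0 in both assays, and Epha10 is filled on opposite sides.

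The 9 SMART-Seq2 calls are given here by role, each family being too small to set its share against the 4.09% of all genes called (1.45% higher and 2.64% lower). Of 9 Eph receptors tested 0 were higher and 2 lower, and of 3 ephrins 1 was lower. Of 3 Slit genes 2 were lower, while neither of the 2 Robo receptors tested was called. Of 5 genes of the Unc5 and Dcc group 1 was higher and 1 lower, and the 1 netrin tested was higher. Of 12 semaphorins 1 was lower. None of 6 plexins, 2 neuropilins and 2 netrin-G genes was called at that threshold. Plxna2 nonetheless measured 287 to 378 CPM in frozen and 79.2 to 279 CPM in FFPE wells without overlap (log2 fold change -1.18, SE 0.47, adjusted p = 0.203). Plxna2 is a receptor for class 6 semaphorins.

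The highest counts of each family in SMART-Seq2 wells give the levels around these changes, as the median over 3 wells and the range. Levels are counts over each gene's own transcript and are not set in order between genes. Unc5c, the Unc5 receptor with the most counts, measured 480 CPM (147 to 533) in frozen wells, 800 (779 to 974) with mineral oil, 812 (162 to 1017) with heated xylene and 628 (561 to 1309) with room-temperature xylene. Dcc measured 447 CPM (418 to 523) frozen, 485 (365 to 752) with mineral oil, 911 (416 to 1181) with heated xylene and 737 (12.2 to 797) with room-temperature xylene. All 4 groups of Dcc overlapped. The frozen wells of Unc5c lay under all wells of mineral oil and room-temperature xylene and overlapped with those of heated xylene, and Unc5c was not called between FFPE and frozen.

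Slit3 measured 810 CPM (636 to 1266) in frozen wells, 482 (415 to 660) with mineral oil, 417 (193 to 488) with heated xylene and 512 (461 to 1064) with room-temperature xylene. Robo2, which binds it, measured 452 CPM (337 to 551) frozen, 190 (183 to 329) with mineral oil, 566 (520 to 1059) with heated xylene and 414 (302 to 816) with room-temperature xylene. Epha6, an Eph receptor of cortical and thalamic neurons, measured 345 CPM (310 to 374) frozen, 195 (183 to 213), 520 (144 to 598) and 686 (58.9 to 889) in the 3 FFPE groups in the same order. The frozen wells of Epha6 lay close together and inside the FFPE range.

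Ephb1, a receptor for ephrin-B, measured 187 CPM (115 to 225) frozen, 579 (451 to 627) with mineral oil, 263 (182 to 434) with heated xylene and 212 (99.9 to 928) with room-temperature xylene. Ntng1, a lipid-anchored netrin-G that acts at synapses, measured 161 CPM (51.6 to 192) frozen, 95.6 (89.9 to 284), 199 (6.36 to 222) and 332 (132 to 489) in the FFPE groups. Nrp1, the co-receptor of class 3 semaphorins, measured 107 CPM (58.4 to 107) frozen and 30.8 (2.69 to 42.9), 43.2 (33.9 to 144) and 3.53 (0 to 32.6) in the FFPE groups, with overlap. Sema6d, a membrane-bound semaphorin, measured 200 CPM (177 to 279) frozen and 170 (1.95 to 367), 326 (60.4 to 453) and 155 (34.5 to 183) in the FFPE groups. None of these 4 was called between FFPE and frozen wells.

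Between the 3 ways of removing paraffin, 1 member differed in SCRB-seq. Dcc was lower with mineral oil than with room-temperature xylene, and none of the other 8 members tested was called in any of the 3 contrasts. Its level ran from 76.4 to 323 CPM (median 179) over the 16 wells of mineral oil, from 56.1 to 482 (median 263) with heated xylene and from 128 to 858 (median 336) with room-temperature xylene. The ranges overlapped, and the medians of all 3 lay under the frozen median of 512 CPM. The log2 fold change of mineral oil minus room-temperature xylene was -1.14 (SE 0.31, adjusted p = 0.0143), beside 10.3% of all 1080 genes called in that contrast. It was at -1.13 in wells of 10 nuclei alone, where the adjusted p was 0.108, and was called in the other 5 of 6 alternatives.

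For mineral oil minus heated xylene, 0 of the 9 members were called beside 8.52% of all genes, 2 at an unadjusted p under 0.05 and 0 by DESeq2. The smallest p-values were those of Dcc (-0.72, adjusted p = 0.148), Unc5c (-0.81, 0.188) and Robo2 (-0.87, 0.291). In wells of 10 nuclei alone Unc5c was called at -2.34 (adjusted p = 0.00704). For heated minus room-temperature xylene, 0 of 9 were called beside 1.94% of all genes, 2 at an unadjusted p under 0.05 and 0 by DESeq2. Epha5, an EphA receptor, was at -1.18 (adjusted p = 0.203) and Efna5 at 0.59 (0.279). Both were called once the number of nuclei per well entered the fit, Epha5 at -1.70 (0.0305) and Efna5 at 0.71 (0.0482). Efna5 was also called in wells of 100 nuclei alone, at 1.12 (0.0216).

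SMART-Seq2 wells gave no call among 38 members in any of the 3 contrasts, where 0% of all 8372 genes were called by edgeR. At an unadjusted p under 0.05 there were 2 members between mineral oil and heated xylene, 1 between the xylene methods and 3 between mineral oil and unheated xylene, and DESeq2 called 0 in each. The smallest p-values in the first contrast were those of Robo2 (log2 fold change -1.64, SE 0.58), Epha10 (-7.77, SE 2.98) and Epha5 (-1.44, SE 0.71), all with an adjusted p of 1.00. In the second they were those of Efna5 (3.82, SE 1.54), Slit3 (-0.85, SE 0.55) and Nrp1 (2.71, SE 1.83), and in the third those of Sema4d (3.30, SE 1.47), Epha10 (-6.35, SE 2.84) and Robo1 (-2.83, SE 1.33). Efna5, for example, measured 109 to 446 CPM with heated xylene and 0 to 30.0 CPM with room-temperature xylene without overlap, and its adjusted p over all genes was still 1.00.

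Genes that act with or downstream of these receptors were taken from a list of 72 co-receptors, adaptors and regulators of the cytoskeleton. In SMART-Seq2 wells 7 of the 60 tested were called between FFPE and frozen, 1 higher and 6 lower, beside 4.09% of all genes (1.45% higher and 2.64% lower). Chn2, a Rac inhibitor of the chimaerin family, was higher (log2 fold change 4.47, adjusted p = 5.08e-07). Its relative Chn1, which acts below EphA4, was lower (-3.39, adjusted p = 0.0148), as were, among others, the exchange factors Kalrn (-3.42, 4.92e-06) and Ngef (-3.02, 0.0266), the actin-oxidizing Mical2 (-2.39, 0.000455) and the netrin co-receptor Dscam (-2.01, 0.0132). The median log2 fold change of the list was -0.07.

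In SCRB-seq wells 15 of 26 of these genes were called, 5 higher and 10 lower, beside 58% of all genes (30.2% higher and 27.7% lower), so the share was near the background. Chn2 (4.01), Ngef (-1.84), Dscam (-1.61) and Mical2 (-1.36) were among those called there in the same direction, whereas Kalrn was at -0.29 with an adjusted p of 0.177. Between methods, Rock2, a kinase that regulates the actin cytoskeleton, was higher with mineral oil than with heated xylene (2.63) or room-temperature xylene (1.97). Chl1, a cell adhesion molecule, was lower with mineral oil than with heated xylene (-1.06), and Srgap3 (-1.81) and Lrrc4c (-1.10), the second a receptor of Ntng1, were lower than with room-temperature xylene. These were 2 of 20 tested against heated xylene (8.52% of all genes) and 3 of 20 against room-temperature xylene (10.3%), close to the background, and 0 of 20 were called between the xylene methods (1.94%).

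In plate nuclei, members were seen in fewer FFPE than frozen nuclei. The median nucleus held a count of 10 members in FFPE and 26 in frozen nuclei, at median totals of 47887 and 255329 counts. At least 1 count was present in a larger share of frozen nuclei for 65 of 70 members and in a larger share of FFPE nuclei for 5, with medians over members of 40.5% and 14.3%. Of all 21275 genes with a count in either group, 89.6% had the larger share in frozen and 10.4% in FFPE nuclei, so the members' split was near the background. After each nucleus was thinned to 10000 counts, which left 135 FFPE and 127 frozen nuclei, the split was 59 and 10 with 1 equal, and the medians were 13.4% and 7.41%. Over all genes 64.4% then had the larger share in frozen and 17.3% in FFPE nuclei, the rest being equal, and nothing is read from the members' split beside it. Each group is 1 sample of nuclei, so no test was made.

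Members called between FFPE and frozen in bulk wells are given here as shares of the thinned nuclei, followed by a pair chosen after their values were seen. Unc5b was present in 19.3% of FFPE and 3.94% of frozen nuclei, Ntn4 in 18.5% and 9.45%, and Epha3 in 17.0% and 7.87%. Efna5 was present in 8.15% of FFPE and 43.3% of frozen nuclei, Unc5d in 17.0% and 41.7%, Ephb6 in 9.63% and 39.4%, and Epha10 in 1.48% and 24.4%. Slit1 was present in 11.1% and 25.2%, Slit2 in 12.6% and 20.5%, Slit3 in 37.0% and 62.2%, Robo2 in 21.5% and 48.0%, and Dcc in 27.4% and 39.4%. Sema3e, lower in FFPE bulk wells, was present in nearly equal shares of 7.41% and 7.87%. The pair chosen afterwards was Plxna4, a receptor for class 3 and class 6 semaphorins, in 23.7% and 59.1%, and Epha4 in 5.93% and 30.7%. The granule neuron markers, summed over 5 genes, stood at 960 CPM in FFPE and 12.5 CPM in frozen nuclei, and their part in these shares was not tested.

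**Figure D4:**
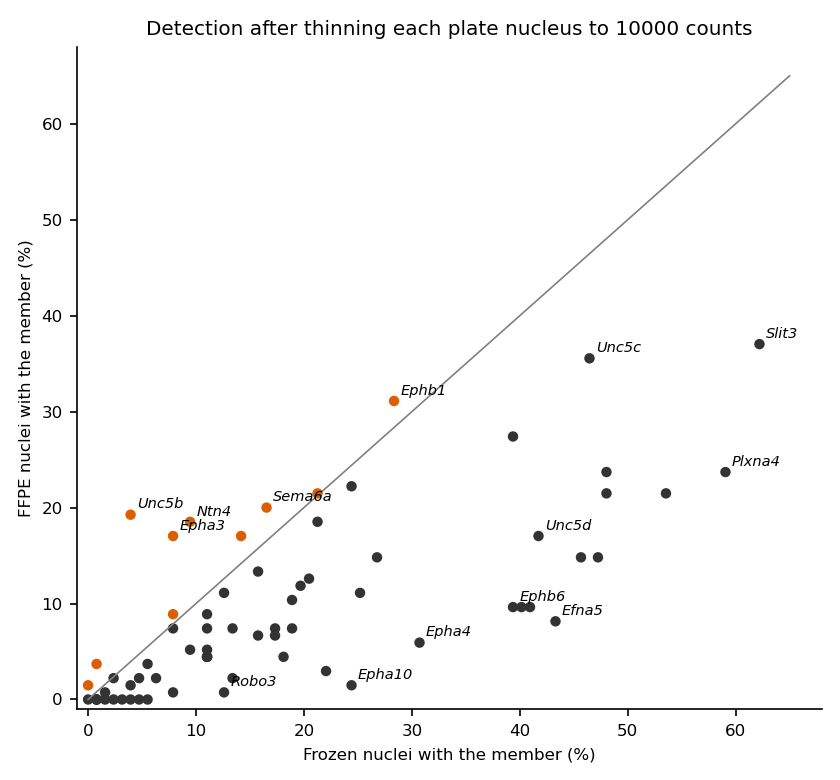
Share of nuclei with at least 1 count of each of the 70 members after thinning to 10000 counts, frozen on the horizontal and FFPE on the vertical axis, in percent, with the line of equal shares in grey. Orange points are the 10 members with the larger share in FFPE nuclei, among them Unc5b, Ntn4 and Epha3, and Efna5, Ephb6 and Epha10 lie far under the line.

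Pooled over nuclei, 60 members had at least 100 counts in either group. Of these 10 were more than 4-fold higher in FFPE (16.7%, beside 18.7% of all genes) and 10 more than 4-fold lower (16.7%, beside 20.5%), so the shares were near the background. The median ratio of FFPE to frozen was 0.901 over these members and 0.847 over all genes. The 143 FFPE nuclei held 23616215 counts in all. Of these the 134 nuclei of batch 2 held 10094688, so most pooled FFPE counts came from the 9 nuclei that are not in batch 2. Without those 9 nuclei there were 5 higher (12.2% of all genes) and 15 lower (31.4%). Among members named below, the ratio without those 9 nuclei was 2.50 for Sema3e, 12.85 for Unc5b, 0.0228 for Epha4, 0.0232 for Robo3 and 0.0456 for Sema3f.

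Unc5b was at 38.6 CPM in FFPE (95% interval 36.2 to 41.2, exact Poisson, counting error only) and 5.43 CPM in frozen nuclei (4.87 to 6.03), a ratio of 7.12. The nucleus with the most counts gave 19.7% of its FFPE counts, and without the top nucleus of each group the ratio was 8.67. It stood at 57.7 CPM in batch 1 and 69.7 in batch 2, and at 4.80 and 6.02 CPM on the 2 frozen plates. Ntn4 was at 71.7 CPM in FFPE and 17.5 in frozen nuclei, a ratio of 4.10 that fell to 2.59 without the top nuclei, since 1 nucleus gave 58.7% of its FFPE counts. Its level was 80.5 and 57.3 CPM in the 2 batches and 12.4 and 22.3 on the frozen plates. Epha3 was at 59.5 and 13.3 CPM, a ratio of 4.48 (3.04 without the top nuclei), with 273 CPM in batch 1 and 27.0 in batch 2.

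Efna5 shows how a single nucleus can set a pooled level. It stood at 361 CPM in FFPE and 202 CPM in frozen nuclei, a ratio of 1.79, but 1 nucleus gave 80.2% of the FFPE counts, and the ratio was 0.458 without the top nucleus of each group. Ephb6 was at 50.5 and 255 CPM (ratio 0.198, or 0.409 without the 9 nuclei), and Unc5d at 104 and 219 CPM (ratio 0.475).

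Epha1, an Eph receptor better known from epithelia, had the highest ratio at 277, from 515 counts in 6 FFPE nuclei and 5 counts in 2 frozen nuclei. Sema3e had a ratio of 44.9, with 95.4% of its FFPE counts in 1 nucleus and a ratio of 3.26 without the top nuclei. Its direction was thus opposite to that in the SMART-Seq2 wells. Nrp1 had a ratio of 21.9 (9.08 without the top nuclei, 71.2% of its FFPE counts in 1 nucleus), and of 2.10 for batch 1 over frozen, under 4-fold. Sema3b, a secreted semaphorin, had a ratio of 14.6 (35.3 without the top nuclei) and Plxnd1, the receptor of Sema3e, of 5.91 (3.92, under 4-fold, without the top nuclei, with 47.9% of its FFPE counts in 1 nucleus). The Plxnd1 ratio was 11.5 without the 9 nuclei and 11.2 by the mean CPM of single nuclei. For Sema3b and Plxnd1 the nuclei of batch 1 gave ratios of 0.366 and 0.474 to the same frozen nuclei. The Sema3b value rests on 3 counts against 30, with overlapping counting intervals (0.0356 to 0.505 CPM in batch 1, 0.318 to 0.674 CPM in frozen). For Plxnd1, 1 nucleus gave 99.0% of the batch 1 counts. No difference in direction between batches is read from these 2 ratios.

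Lower in FFPE nuclei were Robo3, a Robo of commissural axons (ratio 0.0112, 9 against 2170 counts, or 0.00202 without the top nuclei), Sema3f (0.013, with a counting interval of 0.00157 to 0.0473, from 2 counts in 1 FFPE nucleus against 414), Plxnb3, a plexin known from oligodendrocytes (0.022, or 0.00754), Robo4, the Robo of endothelial cells (0.0298, with 19 counts in 1 FFPE nucleus), Epha4, a receptor for both ephrin classes (0.122, or 0.0369 without the top nuclei, since 1 nucleus gave 84.2% of its FFPE counts), and Ntng2, a netrin-G (0.141, or 0.503 by the mean CPM of single nuclei). Frozen levels also rested on few nuclei for 3 of them. On the 2 frozen plates, 1 nucleus each gave 89.9% and 96.2% of the Plxnb3 counts, 78.4% and 77.0% for Robo4, and 97.6% and 78.8% for Sema3f. Epha4 was at 0.742 of the frozen level in batch 1, and Plxnb3, at 0.022 in the pooled nuclei, at 0.147. Set against frozen nuclei, batch 1 had 5 members higher (14.3% of all genes) and 13 lower (32.2%).

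The 2 FFPE batches were also set against each other. Of 56 members with enough counts, 11 were more than 4-fold higher in batch 1 (24.6% of all genes) and 7 more than 4-fold lower (22%). Epha4 was at 148 CPM in batch 1 and 4.56 in batch 2, a ratio of 32.6. Plxnb3 had 384 counts and 0 (at least 74.4-fold higher), the ephrin-B ligand Efnb2 919 and 13 (ratio 41.1), and Ntn1, the founding netrin, 212 and 5 (24.6, or 11.7 without the top nuclei). Efna1, an ephrin-A, had 538 counts in 5 nuclei of batch 1 and 1 in batch 2. Sema4d, a ligand of Plxnb1, had a ratio of 10.2. Lower in batch 1 were Sema3b (3 counts against 162, ratio 0.0108, counting interval 0.0022 to 0.032), Ephb3 (0 against 121, at least 69.4-fold lower), Sema6b (0.0344, or 0.288 without the top nuclei), Plxnd1 (0.0412, or 0.000992 without the top nuclei), Plxna3 (0.131, or 0.0527) and Ntng2 (0.181, or 0.094). The Ephb3 counts lay in 2 of the 134 batch 2 nuclei, with 72.7% in 1, so its bound describes pooled counts and not nuclei. Its share of 1.49% in batch 2 lay within the batch 1 interval of 0% to 3.69%.

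In droplets, members gave 16232 UMIs, 0.623% of all, and 82.8% of the 7031 nuclei held at least 1. Of the 73 members 4 had no UMI, 10 had 1 to 19 and 32 had at least 100. Unc5c was seen most, with 1737 UMIs in 20.3% of nuclei, followed by Dcc with 1251 UMIs, Epha6 with 958, Unc5d with 870, Robo2 with 868 and Slit3 with 780. The 12 classes are the authors' annotation, built on the same nuclei, so a class set against the others is a description with no test. The UMIs per nucleus were alike between classes, with medians of 285 to 396, while class totals ran from 19814 UMIs (Fibroblast) to 827602 (ExNeuron1). Oligodendrocyte markers summed to 11346 CPM in the class named Oligodendrocyte and to 1211 to 2586 CPM in every other class, so UMIs of a gene also appear in classes that should lack it. Each class share below is to be read beside the lowest share over classes, which was 0% for Ntn4, Slit2, Sema4g, Nrp1, Efnb3 and Sema6a, 0.321% for Unc5b and 1.08% to 4.26% for the other 7 members past 2-fold in a class. The 0% came from Fibroblast for Ntn4, Sema4g and Sema6a, from Microglia for Slit2 and Nrp1 and from Endothelial for Efnb3. The intervals of 0% in these small classes reached 7.55%, 3.89% and 2.10%, so a 0% does not show that such UMIs were absent. The first limit lies above the shares of Ntn4 in ExNeuron3 (5.43%) and Sema4g in ExNeuron4 (3.35%).

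In all, 16 pairs of a class and a member were past 2-fold with at least 20 UMIs. Of the members with that many UMIs in a class, those past 2-fold were 1 of 17 in Astrocyte (9.6% of all genes), 1 of 2 in Endothelial (9.18%), 0 of 46 in ExNeuron1 (1.09%), 1 of 25 in ExNeuron2 (0.74%), 3 of 26 in ExNeuron3 (2.42%), 2 of 26 in ExNeuron4 (3.63%), 1 of 16 in ExNeuron5 (1.76%), 3 of 7 in ExNeuron6 (6.89%), 2 of 5 in OPC (11.3%) and 2 of 10 in Oligodendrocyte (13.4%). Fibroblast and Microglia, of 47 and 93 nuclei, had no member with 20 UMIs.

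Among glia, Sema6d, whose receptor is Plxna1, was at 543 CPM in Astrocyte (452 to 645, 127 UMIs) against 184 in all other nuclei, a ratio of 2.95. It was seen in 15.7% of Astrocyte nuclei and 6.10% of the others, and after thinning to 250 UMIs its share remained above the 3.83% of the others. The class named OPC, at 470 CPM (329 to 651), overlapped with it. Sema5a, a membrane-bound semaphorin, was at 327 CPM in OPC (211 to 482, 25 UMIs) against 90.6, a ratio of 3.61. In Oligodendrocyte, the ephrin-B ligand Efnb3 was at 193 CPM (120 to 295) from 21 UMIs against 28.8 in the others (ratio 6.69), and Sema6a, a semaphorin known from oligodendrocytes, was at 248 CPM (164 to 361, ratio 2.42), next to 248 CPM in OPC. In Endothelial nuclei, Sema3c was at 371 CPM (230 to 567) from 21 UMIs, a ratio of 6.39. The intervals of the next class overlapped for Efnb3 (OPC, up to 134 CPM) and Sema3c (Microglia, up to 350 CPM, from 4 UMIs).

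Among neurons, Ntn4, Epha3 and Unc5b were past 2-fold in ExNeuron3, each with another class whose interval overlapped. Ntn4 was at 169 CPM there (131 to 215, 66 UMIs) against 72.7 in the other nuclei (ratio 2.33), and in 5.43% of nuclei against 2.65%. ExNeuron2 came next for Ntn4, at 107 CPM (75.4 to 148). Epha3 was at 336 CPM (281 to 399) against 155 (ratio 2.16), under its level in ExNeuron6, and Unc5b at 84.7 CPM (58.3 to 119) against 41.1 (ratio 2.06). Unc5b was at 138 CPM in Oligodendrocyte (77.2 to 227, 15 UMIs), an interval that overlaps that of ExNeuron3. Low in ExNeuron3 were Efna5, at 87.2 CPM (60.4 to 122) and 0.395 of the others, Sema6d at 0.377, Robo2 at 0.491 and Unc5d at 0.513. This class held the highest sum of granule neuron markers, at 1491 CPM. Of the 9 members called between FFPE and frozen SMART-Seq2 wells, the 2 higher there, Ntn4 and Unc5b, are described above. The 7 lower there were at 0.243 (Slit2), 0.370 (Sema3e), 0.395 (Efna5), 0.513 (Unc5d), 0.585 (Slit1), 0.868 (Ephb6) and 1.19 (Epha10) of the other nuclei in ExNeuron3, from 7 to 72 UMIs, with no test. By the mean CPM of single nuclei the ExNeuron3 ratios of Ntn4 and Unc5b were 1.99 and 1.85, under 2-fold.

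In ExNeuron4, Slit2 was at 182 CPM (137 to 237) against 60.8 (ratio 2.99), with Fibroblast higher as given below, and Sema4g, a membrane-bound semaphorin, at 79.4 CPM (50.8 to 118, ratio 2.26), which overlapped with Astrocyte (32.7 to 100 CPM). Its name goes against its markers, since interneuron genes summed to 1352 CPM there and cortical excitatory genes to 671 CPM. In ExNeuron6, 3 EphA receptors were past 2-fold, with Epha6 at 714 CPM (542 to 923, ratio 2.00), Epha5 at 529 CPM (383 to 713, ratio 2.02) and Epha3 at 394 CPM (269 to 556, ratio 2.24). By the mean CPM of single nuclei the ratios of Epha6 and Epha5 were 1.98 and 1.83, and without the 5% of nuclei with the most UMIs 1.93 and 1.94, all under 2-fold. The intervals of the next class overlapped for both, with Epha6 at 549 CPM in ExNeuron4 (469 to 639) and Epha5 at 345 CPM in ExNeuron5 (253 to 460). In ExNeuron5, Nrp1 was at 165 CPM (103 to 250) from 22 UMIs (ratio 3.00), under the 303 CPM of Fibroblast from 6 UMIs (111 to 659), and in ExNeuron2, Ephb1 was at 356 CPM (296 to 425, ratio 2.09), which overlapped with Oligodendrocyte (156 to 350 CPM).

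The members seen most had UMIs in nearly all classes. Unc5c ran from 332 CPM in ExNeuron6 (219 to 483) to 954 CPM in OPC (747 to 1199), and Dcc from 295 CPM in ExNeuron3 (244 to 354) to 795 CPM in ExNeuron5 (651 to 962). Unc5d ran from 0 UMIs in Fibroblast (0 to 186 CPM), where 3 UMIs would be 151 CPM, to 565 CPM in ExNeuron4 (484 to 657). Slit3 ran from 102 CPM in Microglia, from 3 UMIs, to 435 CPM in ExNeuron5 (330 to 562). For Unc5c, Dcc and Slit3, neighbouring classes in the order of levels had overlapping intervals, while the first and the last did not. The highest levels of Robo1 and Slit2 were in Fibroblast, a pair chosen after its values were seen and resting on few UMIs: 858 CPM from 17 UMIs (500 to 1374) for Robo1 and 555 CPM from 11 UMIs (277 to 993) for Slit2.

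**Figure D5:**
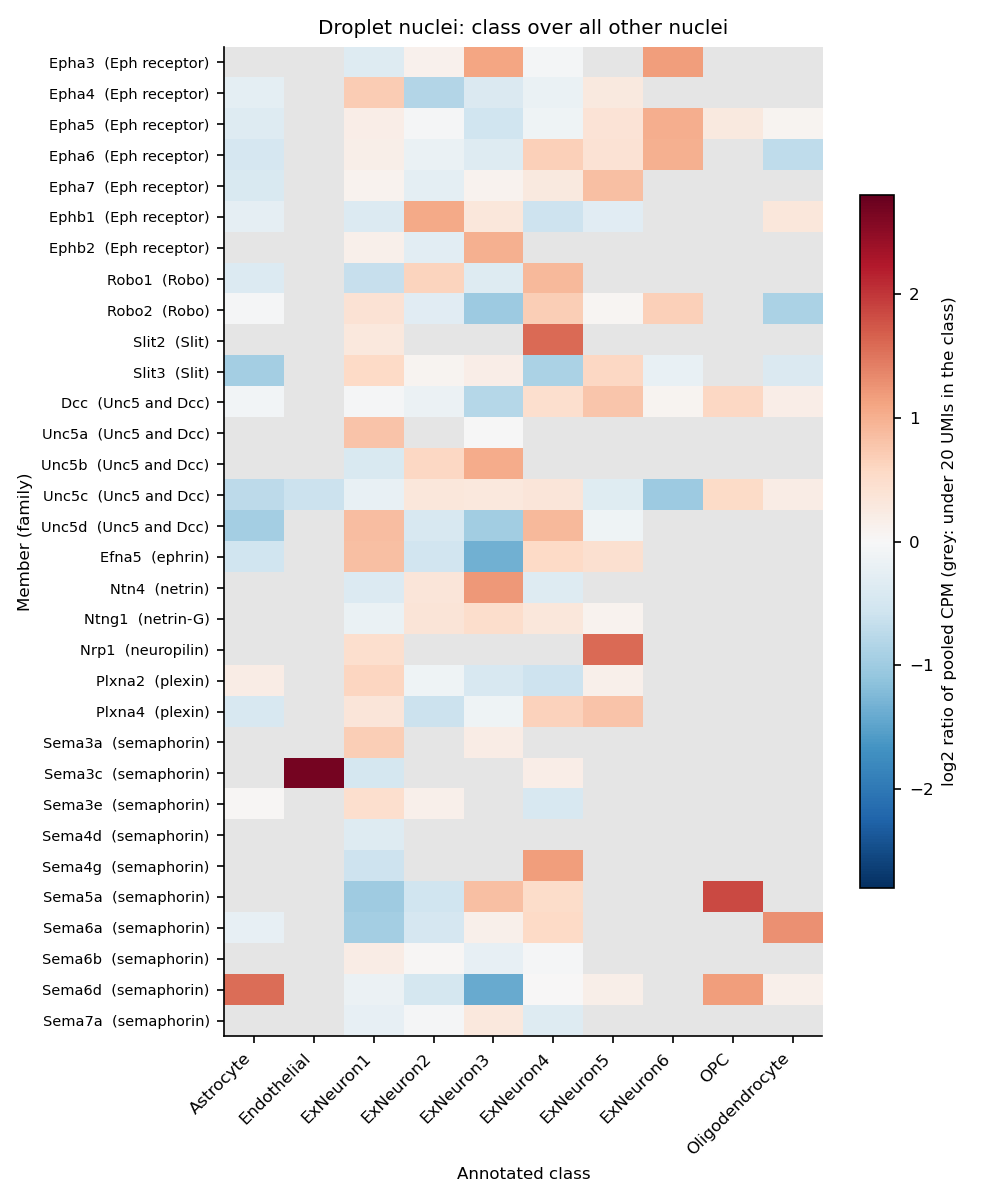
Log2 ratio of the pooled CPM of a class to that of all other droplet nuclei (colour) for the 32 members with at least 100 UMIs (rows, with their family) in 10 annotated classes (columns), grey where the class had under 20 UMIs. Sema3c in Endothelial and Sema5a in OPC are the darkest reds, and Sema6d and Efna5 in ExNeuron3 the darkest blues.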

How the data were processed

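The raw counts per gene were deposited by the authors for bulk wells and plate nuclei, and raw UMI counts for droplets. The fraction of mitochondrial counts per nucleus in the deposited annotation entered no result. The builds named in the submitters' processing notes are hg19 and mm10, with the aligner and counter not given in the sources used here, nor whether intronic reads were counted. Human genes of the mixed reference, 1.61% to 31.8% of a SCRB-seq well's counts, were left out. Batch 3 of the plates had an empty table and was not analysed here. The series table held 137 frozen nuclei without a sample label of their own.

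Bulk counts of all mouse genes were tested with edgeR 4.0.16 (R 4.3.3) by the quasi-likelihood test, with TMM scaling, filterByExpr and Benjamini-Hochberg adjustment over all genes tested at 0.05, after a check on simulated counts. Alternatives were DESeq2 1.42.0, its size factors, no filter, the number of nuclei as a covariate, wells of 1 size, and leaving out each SMART-Seq2 well. Pooled counts of nuclei carry exact Poisson and shares exact Clopper-Pearson 95% intervals, which cover counting error only. Settings that leave out top nuclei, use batch 1 or recount pathway genes were chosen after seeing the data.

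Named members are those called in a contrast (else the 3 with the smallest p), up to 6 each way past 4-fold in plate nuclei with 100 counts, up to 3 a class past 2-fold with 20 UMIs in droplets, and the leading members of each family. Members and lists were chosen with earlier results of these data known. Gene positions are from GENCODE M21 and start regions from RefSeq, GRCm38.p6. One called gene of the pathway list is counted but not reported by name here.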

Additional observations from a re-analysis of the deposited data

Results flagged for a closer look

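Dcc in SCRB-seq wells is listed because 2 of the methods of removing paraffin differed in a direct test. It was 1 of 9 members called in that contrast, beside 10.3% of all genes, which is near the background. Its log2 fold change of mineral oil minus room-temperature xylene was -1.14 (SE 0.31, edgeR adjusted p = 0.0143), the range over 6 alternatives was -1.29 to -1.06, and the adjusted p ran from 0.00364 to 0.108. The wells of mineral oil with 10 nuclei also held fewer counts (7512 to 20593, against 23015 to 124694 with room-temperature xylene). With 100 nuclei the ranges overlapped (32178 to 105967 against 55049 to 128394). The part of these totals in the result was not tested.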

How the results depend on the processing

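Member calls in SCRB-seq moved by more than 1.5 times under some settings. Without a filter on low counts 14 members were called between mineral oil and heated xylene (21.2%, beside 18.8% of all genes), 12 between the xylene methods (18.2%, beside 15.9%), 11 between mineral oil and room-temperature xylene (16.7%, beside 16.1%) and 28 between FFPE and frozen (41.2%, beside 25.2%). With the number of nuclei as a covariate there were 2 of 9 for each contrast with room-temperature xylene (beside 5.74% of all genes for heated xylene and 18.6% for mineral oil). Wells of 100 nuclei alone gave 1 between the xylene methods (7.69%, beside 5.99%) and 12 between FFPE and frozen (52.2%, beside 45.9%), and wells of 10 nuclei alone gave 1 for mineral oil minus heated xylene (16.7%, beside 20.8%). More members passed to the test without the filter (66 for the methods and 68 for FFPE minus frozen) and in wells of 100 nuclei (13 and 23); for the covariate and the wells of 10 nuclei the cause was not tested. Leaving out 1 SMART-Seq2 well gave 0 to 0 calls in each contrast of methods and 5 to 11 for FFPE minus frozen (9.43% to 20.4% of members, beside 1.64% to 4.58% of all genes). Against frozen nuclei, the plate ratios of Sema3b (0.366) and Plxnd1 (0.474) were under 1 in batch 1. Sema3b had 3 counts in batch 1, and 1 nucleus gave 99.0% of the Plxnd1 counts there. Among counts over all members, 69 values stayed within 1.5 times of the 13 reported and 12 moved. Wells carry no replicate number of their own. SMART-Seq2 wells can be matched across groups by their number of nuclei, and the fit with that number as a factor, which acts as a block, gave 8 calls for FFPE minus frozen. At a median of 57530.5 counts per SCRB-seq well, 9 to 11 members passed the filter.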
